A study of Mus musculus with 14 samples.

Results

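Securin, separase, the anaphase-promoting complex or cyclosome (APC/C) and the Emi inhibitors were followed through 10 mouse genes: Pttg1, Espl1, Cdc20, Fzr1, Fbxo5, Fbxo43, Anapc1, Anapc2, Anapc11 and Cdc27. They were chosen by symbol with earlier results of these data known, and all are reported whatever their values. Each was found in both deposited tables, which list 35389 gene identifiers and 35341 symbols. The study sequenced polyA RNA from mouse oocytes, with 2 libraries in each of 7 groups. In the first table, NSN and SN oocytes (non-surrounded and surrounded nucleolus, the chromatin states of less and more mature full-grown oocytes) overexpressed either mCherry, a fluorescent protein that serves as the control, or Rnaseh1, which encodes an enzyme that cuts the RNA strand of RNA-DNA hybrids. In the second table, the rescue set, oocytes overexpressed mCherry, Rnaseh1, or Rnaseh1 together with Supt6, which encodes a transcription elongation factor. The labels give no stage for the rescue set, and for all groups no mouse strain, no age and no statement of what separates the 2 libraries of a group, so p-values measure the spread between these libraries, which may be technical.

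The APC/C is a ubiquitin ligase that marks securin and cyclins for destruction. Securin holds separase inactive, and once securin is destroyed separase cuts the cohesin that keeps chromosomes together. Cdc20 and Fzr1 (also called Cdh1) are the proteins that bring substrates to the APC/C. Oocytes wait for a long time in prophase of the first meiotic division, where APC/C with Fzr1 keeps cyclin B low, and again in metaphase of the second, where Emi2 blocks the APC/C.

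Pttg1 encodes securin and lies at chr11:43420250-43426251 on the minus strand (GRCm38, GENCODE M21). For each gene 1 annotated transcript was used, and others of the same gene may end elsewhere. The Pttg1 transcript is 948 bases long and ends in a 3′ untranslated region of 55 bases. That is short: 1.93% of 11424 tested coding genes had a shorter one, and their median was 915.5 bases. Cdc20, with 62 bases, was the closest of the other genes, and Cdc27 (2853), Anapc1 (2844) and Anapc11 (2772) had the longest. The last bases before and including the poly(A) signal are shown for Pttg1 and Cdc20 because these genes had similarly short ends and moved in opposite directions in the rescue set. Capitals mark the poly(A) signal AATAAA and, in Cdc20, letters of the cytoplasmic polyadenylation element (TTTTAT or TTTTAAT), where 2 matches overlap. This element was searched on the transcript's strand in the last 100 bases of the 3′ untranslated region, or in all of a shorter region.
Pttg1: tagtttctgtatgtatgttgtattAATAAA
Cdc20: tcttgtTTTTATTTTATtttttctAATAAA
The Pttg1 stretch is chr11:43420283-43420312 and the Cdc20 stretch chr4:118432917-118432946, both on the minus strand of GRCm38. Besides Cdc20, Fbxo5 held 1 such element, and 19.2% of the tested coding genes held at least 1. The other 8 genes, Pttg1 among them, had no match in that window, which for Pttg1 was only 55 bases long. Of these, Espl1, Fzr1, Fbxo43, Anapc2, Anapc11 and Cdc27 fell with Rnaseh1 in the rescue set, as did Cdc20 and Fbxo5.

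Promoter sequence from RefSeq (GRCm38.p6, 250 bases before to 50 after the start) was matched for 9 of the 10 genes. The cell cycle homology region (CHR, TTTGAA on either strand), a motif known from promoters of cell cycle genes, was found in Espl1, Cdc20 and Fbxo5 and in 13.8% of the promoters of tested genes. The windows around it are shown because these genes encode the target of securin, the activator of the APC/C at anaphase and its inhibitor. With Rnaseh1 in the rescue set they fell by unequal amounts (log2 fold changes of -3.44, -2.11 and -1.29). Fzr1, Anapc2, Anapc11 and Cdc27, whose windows held no CHR, fell too. Capitals mark the CHR and any CCAAT box (CCAAT on either strand, in 38.7% of the promoters of tested genes), and neither motif overlaps the other. The full promoter sequences held 1 CCAAT box for Espl1, 2 for Cdc20 and 3 for Fbxo5, not all of which lie in the windows shown.
Espl1: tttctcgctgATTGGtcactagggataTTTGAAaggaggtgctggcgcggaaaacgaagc
Cdc20: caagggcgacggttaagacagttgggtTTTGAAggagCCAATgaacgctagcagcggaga
Fbxo5: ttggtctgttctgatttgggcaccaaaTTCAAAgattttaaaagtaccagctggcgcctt
They lie at chr15:102296239-102296298 (plus strand), chr4:118437329-118437388 (minus) and chr10:5805430-5805489 (minus). The Pttg1 window (chr11:43425932-43426231) held neither set of letters, which says only that they are not in this window.

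All 10 oocyte markers were present in all 14 libraries, from Mos at 4.91 to 896 TPM (a gene's share of all transcripts in a library, corrected for its length and scaled to a fixed total) to Gdf9 at 899 to 7765. Ddx4 had the lowest maximum of these markers, at 7.51 to 33.6 TPM. Of 12 granulosa and cumulus cell markers, Foxl2, Amh and Amhr2 were listed at 0 in every library, and the summed level of the list was 23.2 to 48.9 TPM, most of it Cyp19a1. Of 6 markers of theca, stroma and blood cells, Col3a1 and Hbb-bs were listed at 0 throughout and Pecam1 supplied nearly all of a sum of 2.81 to 32.0 TPM. The overexpressed genes followed their labels: Rnaseh1 was at 81.0 to 137 TPM in the 6 mCherry libraries and at 229 to 2270 TPM in the 8 libraries with Rnaseh1, and Supt6 was at 28.2 and 21.0 TPM in the libraries labelled with it and at 0.72 to 7.27 TPM in the others. In the first table, 2 libraries stood apart: replicate 2 of SN mCherry was the highest for 6 of the 10 genes and the lowest for Pttg1, and replicate 2 of NSN Rnaseh1 was the lowest for 8. The latter also had the lowest Rnaseh1 level of the Rnaseh1 libraries. TPM carries no read depth, and in these bulk samples fewer cells of a type and less RNA per cell cannot be told apart.

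Securin messenger RNA was by far the most abundant of the 10. In the first table Pttg1 held place 3 to 14 among all listed genes in each library, and in the rescue set place 5 to 57. Pttg1 alone made up 75.3% to 98.8% of the summed TPM of the 10 genes. In the control libraries of the rescue set the other genes followed in the order Cdc20 (215 ± 0.24 TPM), Fbxo5 (157 ± 29.8), Anapc11 (114 ± 8.35), Fbxo43 (84.9 ± 1.32), Cdc27 (50.6 ± 20.2), Espl1 (44.4 ± 7.23), Anapc2 (37.2 ± 2.66), Fzr1 (26.6 ± 1.52) and Anapc1 (15.9 ± 0.95; SD, n = 2 for each). In that order Cdc27, Espl1 and Anapc2 were neighbours that differed by less than their spread. Cdc20 messenger RNA thus outnumbered that of Fzr1, which was 11.9% and 12.9% of it there and 3.19% to 16.5% over all 14 libraries. Fbxo5, which encodes Emi1, was above Fbxo43, which encodes Emi2, in every library, by 1.59 to 4.11 times.

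**Figure D1:**
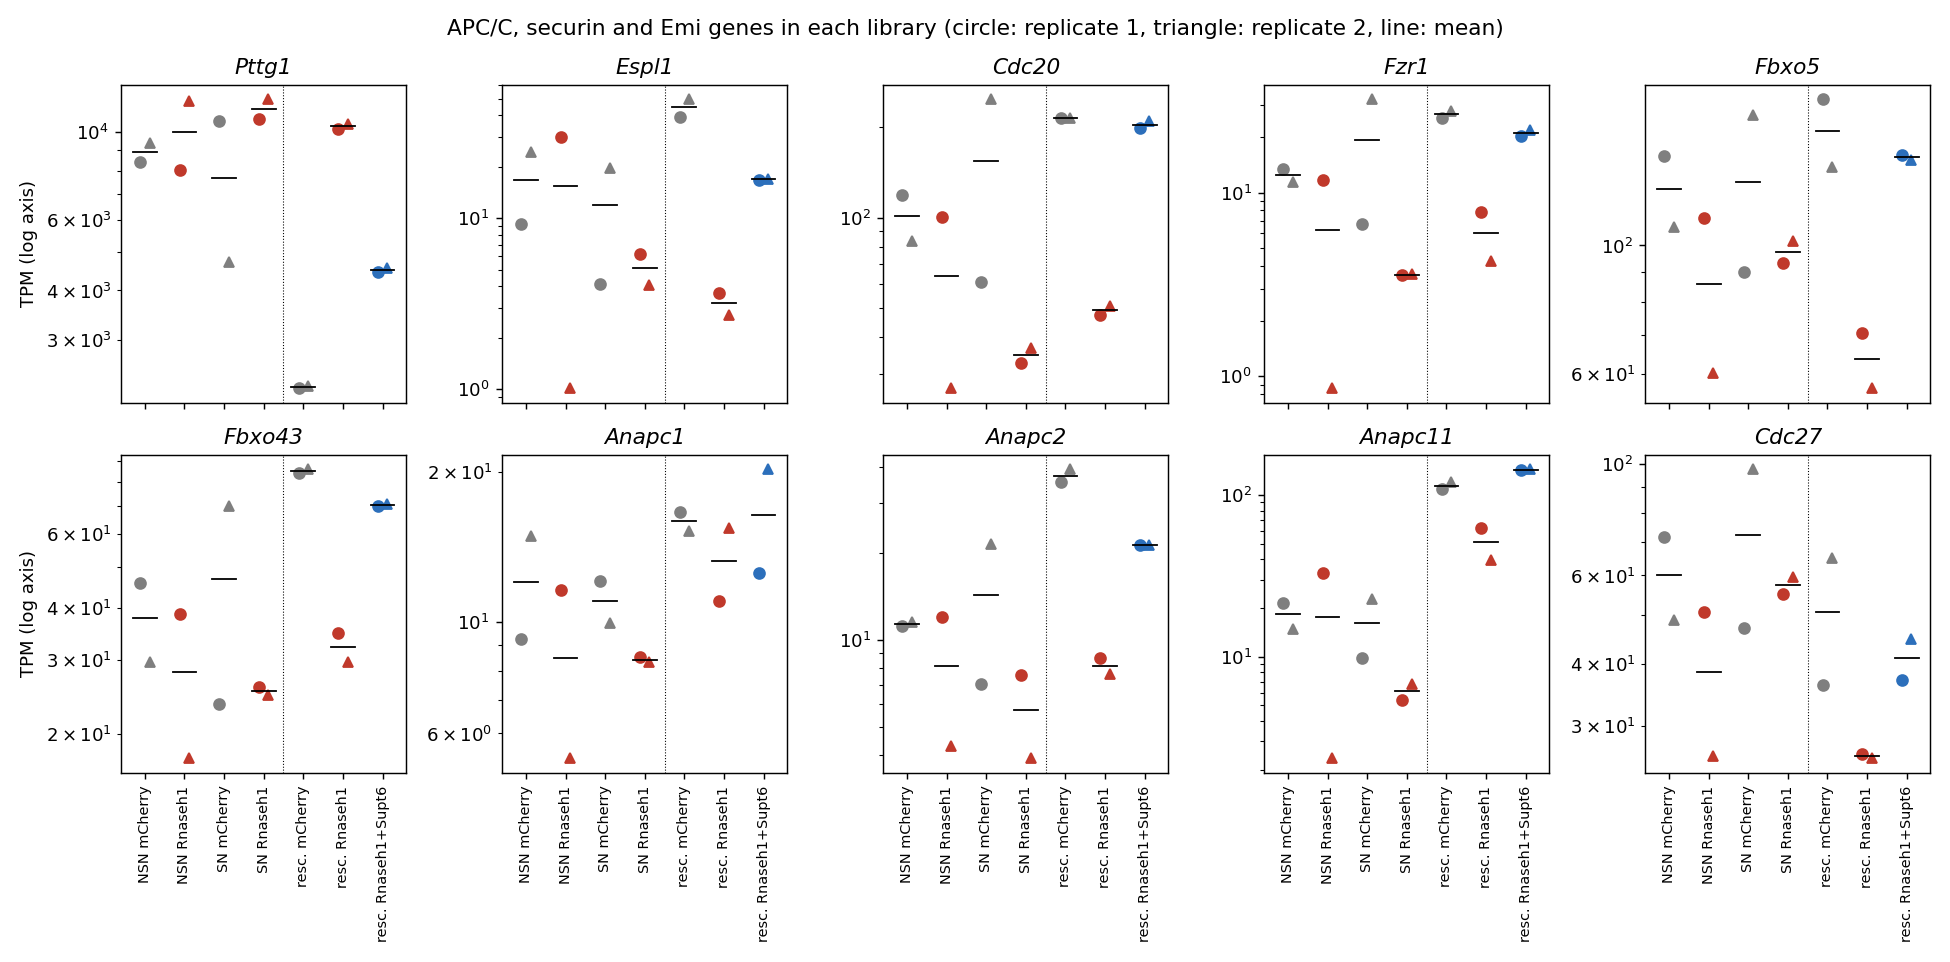
TPM (log axis) of each gene in the 14 libraries, by group. Circles are replicate 1, triangles replicate 2 and lines group means, and the dotted line separates the tables, which were normalized separately. Pttg1 rises from 2271 and 2301 TPM in the rescue controls to 10158 and 10498 with Rnaseh1, where 8 of the other 9 genes have a mean below that of the rescue controls past the threshold.

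The comparison of Rnaseh1 with mCherry in the rescue set asks how the share of these messages in polyA RNA differs with overexpressed Rnaseh1. TPM is a share, so a change in the amount of a message and one in the rest of the library cannot be told apart. Among the 10 genes securin rose, and separase, both activators, both Emi genes and 3 of the 4 subunits fell. Pttg1 was 4.52 times its control level, Espl1 was at 7.14% of it, and Cdc20, Fzr1 and Anapc2 were at 21.8% to 22.8%. Of the 10 genes, 1 rose and 8 fell, where 20.3% of 12859 tested genes rose and 46.2% fell. The median log2 fold change was -1.33 for the 10 genes and -0.52 for all tested genes. Median centring moved these medians to -0.74 and 0.06 and the split of all calls from 2608 higher and 5945 lower to 4297 higher and 3894 lower, and under it 1 of the 10 genes rose and 7 fell. Quantile normalization gave 4223 higher and 3958 lower, and again 1 and 7 of the 10.

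Pttg1 was at 2271 and 2301 TPM with mCherry and at 10158 and 10498 TPM with Rnaseh1. The groups did not overlap, and the libraries within each were close together. The log2 fold change was 2.17 (SE 0.055, adjusted p = 6.8e-07), above that of 97.6% of tested genes.

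Espl1, which encodes separase, the protease that securin inhibits, was at 39.3 and 49.5 TPM with mCherry and at 3.63 and 2.71 TPM with Rnaseh1. It had the largest fall of the 10. Its log2 fold change was -3.44 (SE 0.20, adjusted p = 7.4e-06). Securin and separase messages therefore parted in this set: the ratio of Pttg1 to Espl1 was 57.8 and 46.5 with mCherry and 2798 and 3874 with Rnaseh1. High ratios were not limited to Rnaseh1. In the mCherry libraries of the first table the ratio was 911 and 385 in NSN and 2575 and 240 in SN.

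Cdc20, the activator that targets securin at anaphase, was at 215 and 215 TPM with mCherry and at 47.3 and 50.6 TPM with Rnaseh1, with a difference of -2.11 on the log2 scale (SE 0.089, adjusted p = 2.1e-06). Fzr1, the activator that works in prophase arrest, was at 25.6 and 27.7 TPM and at 7.81 and 4.24 TPM (-2.02, SE 0.25, adjusted p = 0.00035). Both activators fell by a similar amount, and the libraries with Rnaseh1 were the lowest for each. The 2 libraries with Rnaseh1 differed more for Fzr1, a low message, than for Cdc20. The fall of Fzr1 was -1.29 on quantile normalization and -0.86 with the trend on GC content removed, and that of Cdc20 -1.22 under the latter, all past the threshold.

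The Emi genes encode proteins that block the APC/C, Emi1 during prophase and mitotic entry and Emi2 at the arrest in metaphase of the second meiotic division. Fbxo5 was at 178 and 136 TPM with mCherry and at 70.8 and 56.8 TPM with Rnaseh1 (log2 fold change -1.29, SE 0.16, adjusted p = 0.00031). Fbxo43 was at 84.0 and 85.8 TPM and at 34.8 and 29.7 TPM (-1.38, SE 0.12, adjusted p = 4.5e-05). Both fell to about 40.5% and 37.9% of control, so messages for inhibitors and activators of the APC/C fell together. On median centring the changes were -0.70 and -0.79, quantile normalization gave -0.88 for Fbxo43, and removal of the GC trend gave -2.16 for it, all past the threshold.

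The subunits did not share one size of change. Anapc2, the cullin subunit of the catalytic core, was at 35.3 and 39.1 TPM with mCherry and at 8.63 and 7.59 TPM with Rnaseh1 (log2 fold change -2.07, SE 0.15, adjusted p = 2.3e-05). Anapc11, the RING subunit that binds the ubiquitin-charged enzyme, was at 108 and 120.3 TPM and at 62.9 and 39.5 TPM (-1.18, SE 0.20, adjusted p = 0.0016). Both core subunits therefore fell without overlap between the groups. Anapc2 was at -1.37 on quantile normalization and -1.23 with the GC trend removed, and Anapc11 at -0.59 on median centring and -0.66 with the GC trend removed, all past the threshold. Cdc27, a scaffold subunit to which the activators dock, was at 36.4 and 64.9 TPM with mCherry and at 26.5 and 25.9 TPM with Rnaseh1 (-0.87, SE 0.26, adjusted p = 0.020). This call was lost without the filter on low values (adjusted p = 0.058), without replicate 2 of Rnaseh1 (0.053) or of mCherry (-0.46, 0.076), and on median centring (-0.28, 0.33) and quantile normalization (-0.30, 0.33), while removal of the GC trend gave -1.87 (0.00063). Anapc1, the large scaffold subunit, was at 16.6 and 15.2 TPM and at 11.1 and 15.4 TPM, with overlapping groups. Its log2 fold change was -0.26 (95% interval -0.88 to 0.35, adjusted p = 0.40), and it turned to 0.32 on median centring and 0.47 on quantile normalization, so neither a change nor its direction was settled.

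**Figure D2:**
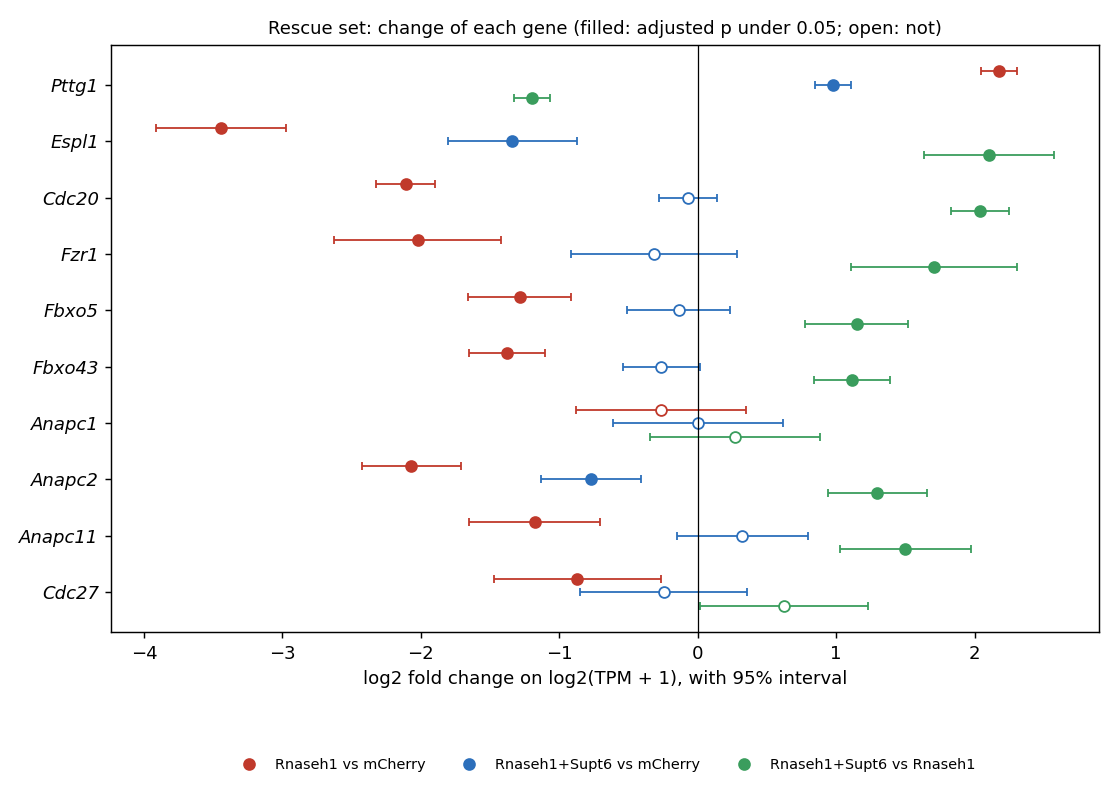
Change of each gene in the 3 comparisons of the rescue set, on the log2(TPM + 1) scale with 95% intervals. Filled points have an adjusted p under 0.05. With Rnaseh1 alone (red), Pttg1 stands at 2.17 and the others between -0.26 and -3.44, and with Supt6 added (blue) most others lie near 0 while Pttg1 stays at 0.98.

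The difference from Pttg1 was tested in each library by subtracting its log2 value from that of every other gene. With Rnaseh1, the signed change of all 9 other genes lay below that of Pttg1 past the threshold, from Anapc1 (difference -2.44, SE 0.25, adjusted p = 4.5e-05) to Espl1 (-5.62, SE 0.20, adjusted p = 2.3e-07). Pttg1 was set apart with its change in the rescue set known, so these p-values are descriptive. The result does not set the 9 apart, since 93.7% of all tested genes were also below Pttg1. The ratio of Pttg1 to Cdc20 was 10.6 and 10.7 with mCherry and 215 and 207 with Rnaseh1. In the mCherry libraries of the first table it was 70.6 and 112 in NSN and 174 and 19.0 in SN.

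Oocyte markers moved with this result: 0 of 10 rose and 8 fell, where 20.3% of all tested genes rose and 46.2% fell. On median centring 1 rose and 6 fell, and with the GC trend removed 1 and 9. Quantile normalization gave 1 and 8, and there Ddx4 turned from a fall to 0.11. The summed level of these markers was 16566 and 17594 TPM with mCherry, 4685 and 4926 with Rnaseh1, and 16529 and 17328 with both genes. The granulosa and cumulus cell list summed to 46.3 and 48.5, 41.2 and 47.9, and 41.1 and 46.0 TPM, with Foxl2, Amh and Amhr2 at 0 in each. The theca, stroma and blood cell list summed to 30.2 and 32.0, 5.52 and 9.26, and 29.5 and 31.5 TPM, nearly all of it Pecam1, with Col3a1 and Hbb-bs at 0. The part of these shifts in the result was not tested.

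With Supt6 added to Rnaseh1, Pttg1 kept an excess over the mCherry control while most of its companions lay close to it. Pttg1 was at 4448 and 4551 TPM, 1.97 times control (log2 fold change 0.98, SE 0.055, adjusted p = 0.00096), above 98.5% of tested genes. Both libraries lay above both controls and below both Rnaseh1 libraries. Of the 10 genes, 1 rose and 2 fell, where 5.71% of tested genes rose and 7.6% fell. The median was -0.19 for the 10 genes and -0.04 for all tested genes. Median centring moved the split of all calls from 734 higher and 977 lower to 921 higher and 809 lower, with 1 and 2 of the 10 as before.

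The genes that fell were Espl1 and Anapc2. Espl1 was at 16.7 and 16.9 TPM, 37.9% of control (log2 fold change -1.34, SE 0.20, adjusted p = 0.0095). Anapc2 was at 21.4 and 21.3 TPM, 57.5% of control (-0.77, SE 0.15, adjusted p = 0.021). Both messages lay below the controls and above the libraries with Rnaseh1 alone. Neither call was firm: Espl1 lost it without either Rnaseh1 and Supt6 library (adjusted p = 0.096 and 0.097) and without replicate 2 of mCherry (0.084), Anapc2 lost it without each of the 4 libraries (0.087 to 0.16), and the number of genes called fell from 1711 to between 85 and 320. Pttg1 kept its call without each of these 4 libraries, with an adjusted p of at most 0.033 over all alternatives.

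Cdc20 was at 199 and 209.7 TPM with both genes, 95.1% of control (log2 fold change -0.07, 95% interval -0.28 to 0.14, adjusted p = 0.67). Fzr1 was at 20.4 and 22.0 TPM (-0.32, interval -0.92 to 0.29), Fbxo5 at 143 and 141 TPM (-0.14, interval -0.51 to 0.24) and Fbxo43 at 70.2 and 71.1 TPM (-0.26, interval -0.54 to 0.01). For these regulators no difference from the control passed the test, though both libraries lay below both controls for Cdc20, Fzr1 and Fbxo43. Anapc11 was at 142 and 144 TPM, above both controls (0.32, interval -0.15 to 0.80, adjusted p = 0.36, and 0.048 with the compared groups fitted alone). Anapc1 was at 12.6 and 20.2 TPM (0.00, interval -0.61 to 0.62) and Cdc27 at 37.2 and 44.9 TPM (-0.25, interval -0.85 to 0.36), both overlapping the controls. All 9 other genes differed from Pttg1 past the threshold, from Anapc11 (-0.65, adjusted p = 0.024) to Espl1 (-2.32, adjusted p = 0.00018), where 82.2% of all tested genes did. Anapc11 lost this call without any of the 4 libraries (adjusted p 0.062 to 0.11), and Anapc1 without replicate 1 of Rnaseh1 and Supt6 (0.068) or of mCherry (0.053).

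Set directly against Rnaseh1 alone, Rnaseh1 with Supt6 had less securin and more of most other messages. Pttg1 fell by 1.20 on the log2 scale (SE 0.055, adjusted p = 4.5e-06). Of the other genes 7 rose, where 41.6% of tested genes rose and 17.4% fell: Espl1 (2.10), Cdc20 (2.04), Fzr1 (1.71), Anapc11 (1.5), Anapc2 (1.3), Fbxo5 (1.15) and Fbxo43 (1.11), with adjusted p from 3.7e-06 to 0.0010. Cdc27 was higher in both libraries (0.62, SE 0.26) with an adjusted p of 0.072. That difference passed with the GC trend removed (1.43, adjusted p = 0.0029) and with the compared groups fitted alone (0.015), and was 0.11 on median centring and on quantile normalization. Anapc1 differed by 0.27 (interval -0.35 to 0.88, adjusted p = 0.40). The log2 change of each of the 9 genes was above that of Pttg1, as for 81.5% of all tested genes. Median centring turned the split of all calls from 5343 higher and 2235 lower to 3370 higher and 3855 lower, and quantile normalization to 3472 and 3747, with 7 of the 10 higher and 1 lower under each. Pttg1 changed by -0.68 on quantile normalization, and values for Fzr1, Fbxo5, Fbxo43, Anapc2 and Anapc11 moved by over 1.5 times under at least 1 of these scalings or the removal of the GC trend, with every call kept. This comparison shares its libraries with those against mCherry. The level of Rnaseh1 itself also differed, at 1243 and 625 TPM with Rnaseh1 alone and 2270 and 2017 TPM with Supt6 added (log2 fold change 1.28, adjusted p = 0.0062), and its part in the result was not tested.

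**Figure D3:**
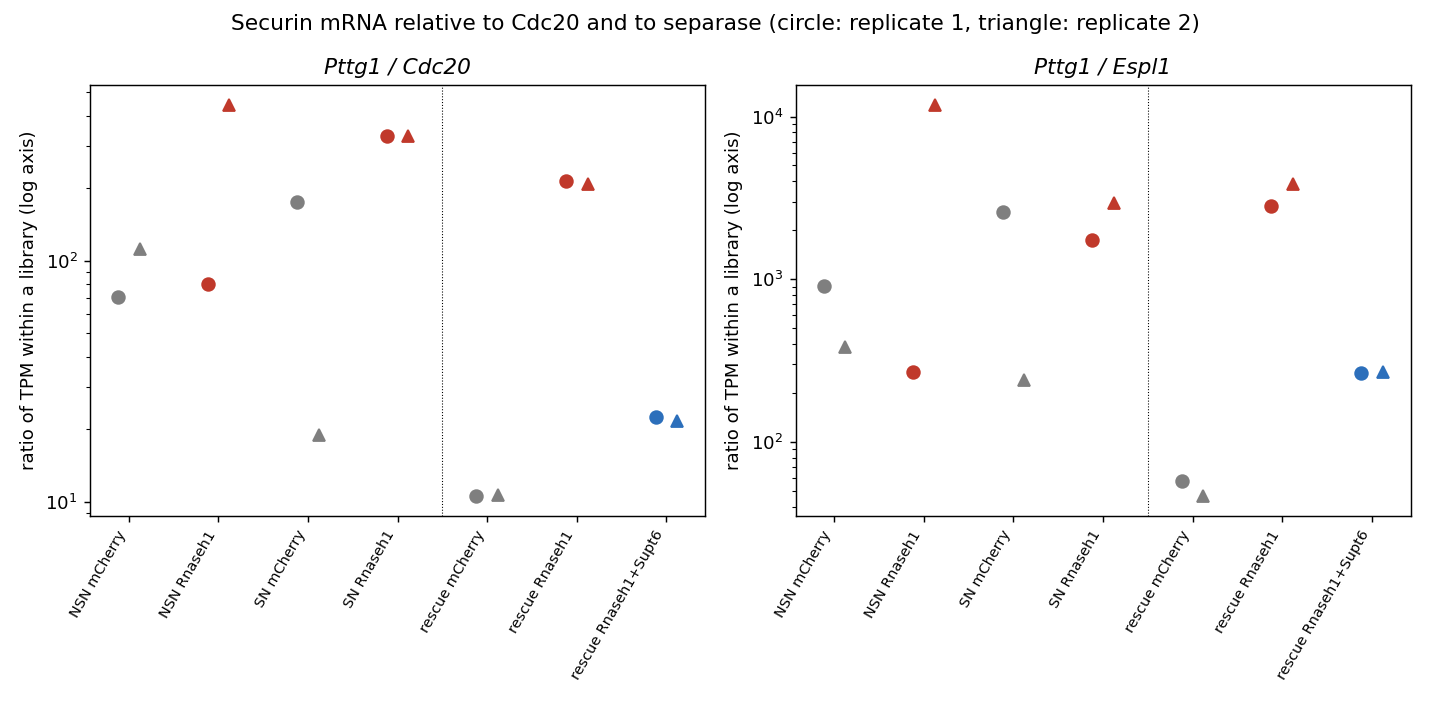
Ratio of Pttg1 to Cdc20 (left) and to Espl1 (right) within each library, on log axes. The rescue controls have the lowest ratios, 10.6 and 10.7 for Cdc20, against 215 and 207 with Rnaseh1 and 22.4 and 21.7 with Supt6 added. The NSN and SN groups spread widely, controls included: for Cdc20 the SN mCherry libraries are at 174 and 19.0.

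In NSN and SN oocytes no gene passed the threshold in any of the 5 comparisons by limma, the only tool run (0.0% of 12736 tested genes rose and 0.0% fell in each). At an unadjusted p under 0.05 there were 859 genes for Rnaseh1 in SN, 353 for Rnaseh1 in NSN, 288 for the difference between these effects, 328 for SN against NSN with mCherry and 584 with Rnaseh1, where 637 would be expected by chance, and 0 of the 10 genes in each. Median centring, which moved the median of all genes from -0.22 to 0.02 in SN and from -0.29 to 0.03 in NSN, also called 0. Rnaseh1 itself, the overexpressed gene, was not called either, with a log2 fold change of 3.55 in SN and 1.76 in NSN. A gene that was not called may therefore still have changed. The values that follow are descriptions with their intervals. Oocyte markers summed to 6115 and 18297 TPM in SN mCherry, 5820 and 5962 in SN Rnaseh1, 10383 and 13424 in NSN mCherry, and 4828 and 12609 in NSN Rnaseh1, and their part in the spread was not tested.

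Pttg1 was at 8393 and 9377 TPM in NSN mCherry, 8045 and 11968 in NSN Rnaseh1, 10633 and 4706 in SN mCherry, and 10764 and 12078 in SN Rnaseh1. By mean the order was SN Rnaseh1 (11421 ± 929), NSN Rnaseh1 (10007 ± 2774), NSN mCherry (8885 ± 696) and SN mCherry (7669 ± 4191; SD, n = 2 for each), and each neighbour in it differed by less than the larger of the spreads. With Rnaseh1 in SN oocytes both libraries lay above both controls, with a log2 fold change of 0.69 (interval -0.40 to 1.78, adjusted p = 0.61), and without replicate 2 of SN mCherry it was 0.10. In NSN oocytes the groups overlapped (0.15, interval -0.95 to 1.24).

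Cdc20 was at 119 and 83.8 TPM in NSN mCherry, 101 and 26.9 in NSN Rnaseh1, 61.0 and 248 in SN mCherry, and 32.8 and 36.6 in SN Rnaseh1. Fzr1 was at 13.4 and 11.4, 11.7 and 0.86, 6.71 and 32.2, and 3.54 and 3.62 TPM in the same order of groups. For both activators the SN Rnaseh1 libraries lay below both SN controls, while the controls differed from each other by more than the Rnaseh1 libraries did. The log2 fold change in SN was -1.80 for Cdc20 (interval -3.62 to 0.02, adjusted p = 0.61) and -1.80 for Fzr1 (interval -4.09 to 0.48, adjusted p = 0.61), and -0.80 and -0.75 without replicate 2 of SN mCherry. In NSN it was -0.92 and -1.46 with both libraries of each group, and 0.01 and -0.08 without replicate 2 of NSN Rnaseh1.

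Espl1 was at 9.21 and 24.4 TPM in NSN mCherry, 29.8 and 1.01 in NSN Rnaseh1, 4.13 and 19.6 in SN mCherry, and 6.17 and 4.08 in SN Rnaseh1. Replicates of this low message differed by more than 2 times in the first 3 groups, and its interval in SN ran from -3.71 to 2.17. Anapc11 and Anapc1 were lower in both SN Rnaseh1 libraries (5.41 and 6.80 TPM, and 8.51 and 8.34 TPM) than in both SN controls (9.80 and 22.7 TPM, and 12.1 and 9.97 TPM). Together 1 gene, Pttg1, lay higher without overlap and 4 (Cdc20, Fzr1, Anapc11 and Anapc1) lower, where 18.9% of all tested genes lay higher and 31.7% lower.

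The Emi genes and the remaining subunits overlapped between SN Rnaseh1 and SN mCherry. Fbxo5 was at 93.4 and 102 TPM against 89.9 and 167.5, and Fbxo43 at 25.8 and 24.8 TPM against 23.6 and 70.2. Anapc2 was at 7.58 and 3.88 TPM against 7.03 and 21.6, and Cdc27 at 55.1 and 59.6 TPM against 47.1 and 97.7. In each of these pairs the high control was replicate 2, the library that stood apart. In NSN, Fbxo5 spanned 60.4 to 143 TPM and Fbxo43 17.4 to 45.9 TPM over the 4 libraries, Anapc2 4.29 to 12, Anapc11 2.35 to 32.7, Anapc1 5.35 to 14.9 and Cdc27 26.1 to 71.5 TPM, each with its lowest value in replicate 2 of NSN Rnaseh1. Leaving out replicate 1 of that group instead gave 1152 called genes for Rnaseh1 in NSN, with 1 of the 10 lower (Anapc11, -2.50, adjusted p = 0.046), where 8.44% of tested genes fell. The group then held 1 library, the one that stood apart, whose spread was taken from the other groups.

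The median log2 fold change of the 10 genes was -0.72 in SN and -0.64 in NSN, against -0.22 and -0.29 for all tested genes. The effect in SN minus that in NSN ranged from -0.88 (Cdc20) to 0.54 (Pttg1), with an adjusted p of 1 for each of the 10. In SN all 9 estimates lay below that of Pttg1, by 0.93 (Cdc27) to 2.49 (Cdc20 and Fzr1) on the log2 scale, but 0 differences passed the threshold (Cdc20: interval -4.87 to -0.11, adjusted p = 0.51), as for 0.0% of all tested genes. Between SN and NSN controls the 10 genes ranged from -0.65 (Espl1) to 0.30 (Cdc20), and the groups overlapped for each. Between SN and NSN with Rnaseh1 they ranged from -0.59 (Anapc11) to 0.64 (Cdc27), with Pttg1 at 0.22. Rnaseh1 itself was higher by 1.55 in that comparison, and by 1.79 for the effect in SN minus that in NSN. Neither was called, and in both comparisons stage and the level of Rnaseh1 cannot be told apart. With both libraries that stood apart left out, a choice made after seeing the data, SN against NSN under Rnaseh1 called 338 genes. Anapc11 was among the 2.3% of tested genes that then fell (-2.25, adjusted p = 0.045). The signed changes of Espl1, Cdc20, Fzr1 and Anapc11 (-1.47 to -2.35) then lay below that of Pttg1 (0.50), with differences of -1.97 to -2.85 (adjusted p 0.012 to 0.019), as did those of 22.4% of all tested genes. NSN Rnaseh1 then had 1 library, which was assumed to vary like the other groups.

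**Figure D4:**
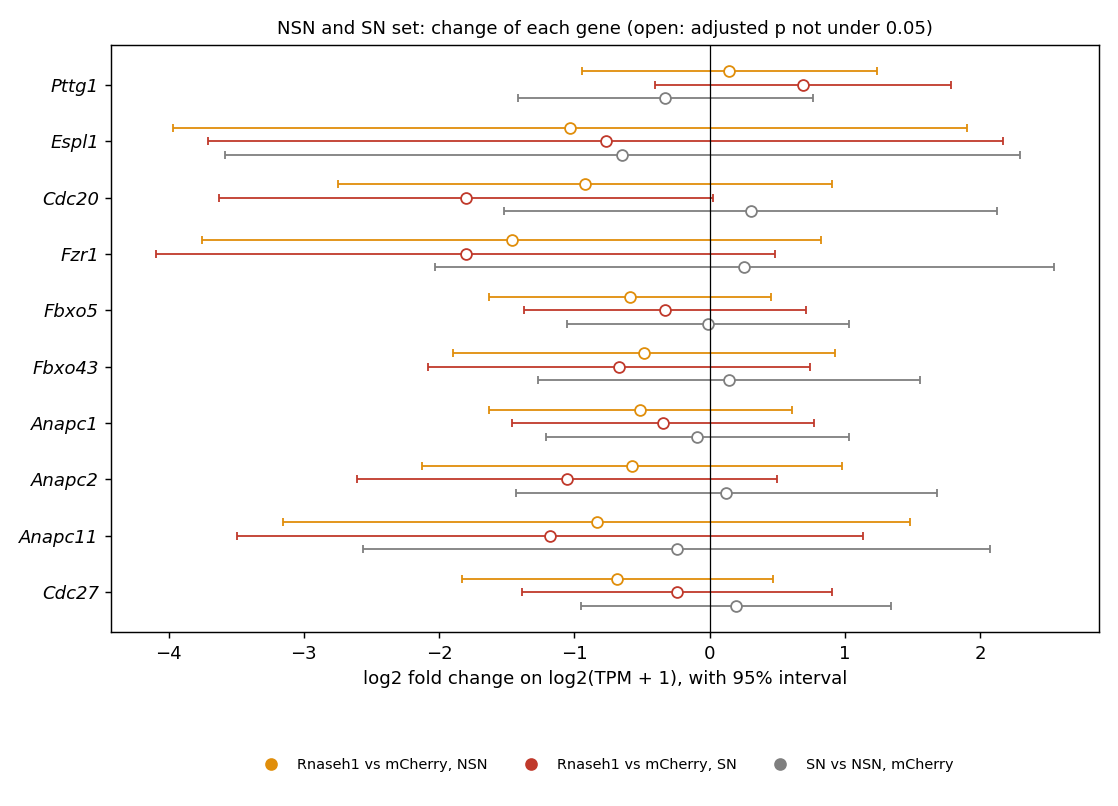
Change of each gene with Rnaseh1 in NSN (orange) and SN (red) oocytes and between SN and NSN controls (grey), on the log2(TPM + 1) scale with 95% intervals. All points are open because no adjusted p is under 0.05, and the intervals include 0 for each gene.

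Subunits of the APC/C outside the 10 genes did not move as a block. In the rescue set with Rnaseh1, 5 of 10 rose and 4 fell, with a median of 0.22 against -0.52 for all tested genes. Among all tested genes 20.3% rose and 46.2% fell. Anapc5 (104 and 118 TPM with mCherry, 32.7 and 30.6 with Rnaseh1) and Anapc7 (64.7 and 66.4 TPM, 14.3 and 14.5) fell, with log2 fold changes of -1.78 and -2.12 and adjusted p of 1.1e-05 and 1.7e-05. Anapc10, a subunit that helps to bind substrates, rose from 68.2 and 72.5 TPM to 187 and 172 TPM (1.34, SE 0.097, adjusted p = 2.2e-05). The median was 0.80 on median centring against 0.06 for all genes (6 rose and 3 fell), 0.09 against 0.05 on quantile normalization (5 and 3), and 0.00 against -0.60 with the trend on GC content removed (5 and 5), where Anapc4 turned from a rise of 0.33 to -0.30. With Supt6 added, 1 of the 10 rose against control, Cdc26 (0.44, adjusted p = 0.038), and 0 fell. Among all tested genes 5.71% rose and 7.6% fell. Anapc5 then stood at 104 and 110 TPM and Anapc10 at 63.9 and 63.4 TPM.

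**Figure D5:**
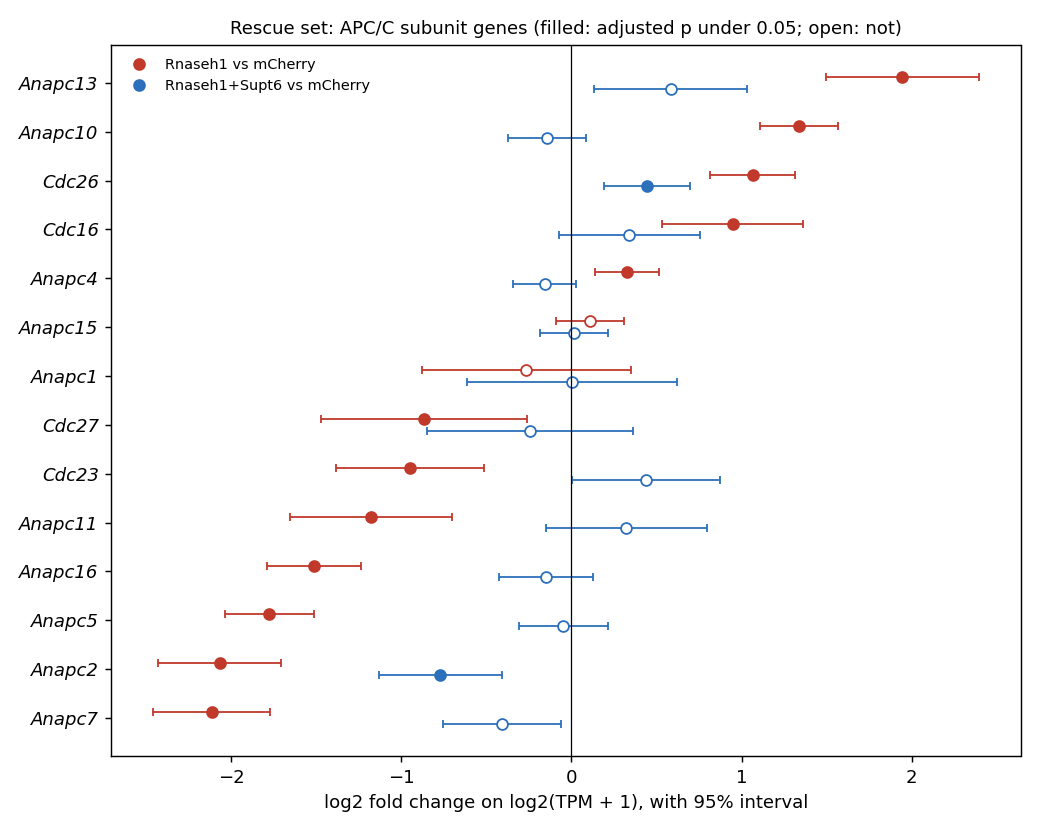
Change of 14 APC/C subunit genes in the rescue set, ordered by the change with Rnaseh1 (red), with Rnaseh1 plus Supt6 in blue, on the log2(TPM + 1) scale with 95% intervals. Filled points have an adjusted p under 0.05. Subunits range from -2.12 (Anapc7) to 1.94 (Anapc13) with Rnaseh1 and lie between -0.77 and 0.58 with Supt6 added.

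The enzymes that hand ubiquitin to the APC/C followed the direction of Cdc20 in part. With Rnaseh1, 0 of 3 rose and 2 fell, where 20.3% of all tested genes rose and 46.2% fell. Ube2c, which starts ubiquitin chains, went from 275 and 269 TPM to 78.1 and 76.4 TPM (log2 fold change -1.80, SE 0.079, adjusted p = 2.5e-06). Ube2s, which extends them, changed by -0.46 (SE 0.11, adjusted p = 0.0073), but by 0.13 on median centring and by 0.67 with the trend on GC content removed, and Ube2d1 by -0.39 (adjusted p = 0.22). With Supt6 added Ube2c stood at 229 and 233 TPM.

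Among 10 substrates of the APC/C other than securin, 2 rose and 6 fell, with a median of -0.82. Of all tested genes 20.3% rose and 46.2% fell, with a median of -0.52. For the substrates the counts were 3 and 5 on median centring and 4 and 6 on quantile normalization. Removal of the GC trend gave 1 and 9, and there Kif18a turned to -0.59. Plk1, a mitotic kinase that also triggers the loss of Emi1, went from 243 and 249 TPM with mCherry to 11.7 and 13.9 TPM with Rnaseh1 (-4.17, SE 0.12, adjusted p = 6.9e-07) and stood at 137 and 147 TPM with Supt6 added (-0.79, adjusted p = 0.0095). The spindle kinase Aurka fell (-2.58, adjusted p = 2.2e-06). Gmnn, which encodes geminin, an inhibitor of replication licensing, went the way of Pttg1: 170 and 171 TPM with mCherry, 500 and 502 with Rnaseh1, and 213 and 213 with Supt6 added (1.55, SE 0.072, adjusted p = 3.1e-06, and 0.32, adjusted p = 0.032).

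Of 8 genes for checkpoint proteins that hold Cdc20, 1 rose and 5 fell, where 20.3% of all tested genes rose and 46.2% fell. On median centring the counts were 2 and 4, and Bub1 turned to 0.18. Quantile normalization gave 1 and 4, with Bub1 turned to 0.05, and removal of the GC trend gave 1 and 6. Mad2l1, whose protein binds Cdc20 directly, rose from 396 and 371 TPM to 1628 and 1913 TPM (2.20, SE 0.094, adjusted p = 2.3e-06) and was at 527 and 559 TPM with Supt6 added (0.50, adjusted p = 0.019). Bub1b, which encodes BubR1, another Cdc20 binder, fell (-2.01, adjusted p = 4.9e-06), as did Mad1l1, the anchor of Mad2 at kinetochores (-2.65, adjusted p = 7.9e-06). Of 9 tested genes that act upstream of the Emi proteins, out of 13 listed, 1 rose and 7 fell against the same shares. Their median was -2.09, and that of all tested genes -0.52. The counts were 2 and 6 on median centring and 0 and 7 with the GC trend removed. Quantile normalization gave 1 and 5, with Fbxw11 turned to 0.07. Besides Plk1, the genes that fell include Camk2g, the kinase subunit that triggers loss of Emi2 at fertilization (-2.52, adjusted p = 6.6e-06). Another is Btrc, the F-box protein that recognises both Emi proteins (-2.74, adjusted p = 8.2e-06).

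Of 6 tested genes for meiotic cohesin and its protectors, out of 8 listed, 2 rose and 1 fell (median -0.08). The shares of all tested genes were 20.3% and 46.2%, with a median of -0.52. Sgo1, a protector of cohesin, was at 36.3 and 31.4 TPM with mCherry and 79.8 and 81.9 TPM with Rnaseh1 (1.24, SE 0.14, adjusted p = 0.00021), and Rad21, the cohesin subunit of mitotic cells, at 26 and 28.5 and at 58.1 and 52.4 TPM (0.99, SE 0.14, adjusted p = 0.00055). On other scales 3 genes of the list rose and 1 fell (median centring, quantile normalization) or 0 rose and 4 fell (GC trend removed). Stag3, a meiotic cohesin subunit, fell from 8.04 and 5.65 TPM to 1.22 and 1.39 TPM (-1.75, SE 0.26, adjusted p = 0.00079) and was at 1.90 and 1.64 TPM with Supt6 added. Rec8, the meiotic subunit that separase cuts, was listed at 0 in all 14 libraries.

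The genes with a pattern most like that of Pttg1 were found over the 14 libraries, as the root mean square difference on log2(TPM + 1) after the mean of each gene in its table was taken off. Over 11799 genes tested in both tables the closest were Exosc7 (0.13), Gm3143 (0.13), Txndc9 (0.15), Dppa3 (0.15) and Vps29 (0.16). Dppa3, a maternal factor of the oocyte, was at 3612 ± 90.3 TPM with mCherry in the rescue set, 13314 ± 345 with Rnaseh1 and 6209 ± 56.3 with Supt6 added (SD, n = 2 for each). None of the other 9 genes was near: Anapc1 ranked at 4537 (0.83) and Espl1 at 11401 (1.93). Among themselves the closest pair was that of the Emi genes, Fbxo5 and Fbxo43 (0.19), followed by Fbxo43 and Anapc2 (0.30), and the activators Cdc20 and Fzr1 differed by 0.31. The points share libraries, so these are descriptions of 14 libraries.

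Genes that fell lay on both sides of Pttg1 in the GC content of their annotated transcripts. Pttg1 had 46.7% GC, close to Anapc1 (46.9%), and 34.7% of tested genes were lower, with a median of 49.4%. Of the 8 genes that fell with Rnaseh1 in the rescue set, Cdc27 (39.9%), Fbxo43 (42.6%) and Fbxo5 (45.1%) lay below Pttg1, and Anapc11 (52.9%), Anapc2 (55.2%), Cdc20 (55.6%), Espl1 (56.1%) and Fzr1 (59.9%) above it. The largest falls (-2.02 to -3.44) were those of Anapc2, Cdc20, Espl1 and Fzr1, the genes with the highest GC. The other genes that fell changed by -0.87 to -1.38. With the trend on GC content removed the same comparison gave 1.77 for Pttg1, -1.22 for Cdc20 and -2.51 for Espl1, and 1 gene rose and 8 fell. The order of the falls then changed, with Fzr1 at -0.86 and Anapc2 at -1.23 against Fbxo43 at -2.16 and Cdc27 at -1.87. The part of GC content in these changes was not tested. Some values are uncertain for other reasons: Cdc20 shares 53 exon bases with Elovl1 on the opposite strand and Fzr1 4 with Mfsd12, the counting's use of strand is not given in the sources used here, and 25.1% of the 31-base words of Cdc20 recur in Gm7856 and 16.0% of those of Fbxo5 in Glcci1. No other transcript held 5% or more of those of Pttg1.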

How the data were processed

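PolyA RNA of 14 oocyte libraries was deposited as TPM per gene in 2 tables, which the authors normalized separately. The submitters' processing notes name RSEM 1.3.3, STAR 2.7.0d, DESeq2, Trim Galore 0.6.7 and the build mm10, with roles not given in the sources used here. Depth is unknown. Of 35389 identifiers 35319 matched a symbol. GENCODE M21 gave coordinates, GC content and 3′ ends, and RefSeq the promoters.

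Each table was fitted with limma 3.58.1 in R 4.3.3 (lmFit, contrasts.fit, eBayes with trend) on log2(TPM + 1), a scale that understates changes of low genes. Genes that reached 1 TPM in 2 or more libraries of a table were tested, all groups of a table shared one spread, and p-values are two-sided with Benjamini-Hochberg adjustment over all tested genes (threshold 0.05). "Rose" and "fell" mean past it. All 10 genes passed the filter in both tables. A second fit used each gene minus Pttg1, which was set apart with its change in the rescue set known. All 10 genes are named, and of each pathway list up to 3 with the smallest p in a comparison. Genes named beyond these serve as range ends or exceptions and were chosen after their values were seen. The genes and lists were chosen with earlier results of these data known. The alternatives took a pseudocount of 0.1 or 5, a filter at 5 TPM or none, quantile normalization, median centring (on genes whose mean TPM reached 10), GC trend removal, groups fitted alone, a replicate block and each library left out. The fit was tested on simulated data.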

Additional observations from a re-analysis of the deposited data

How the results depend on the processing

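Of 1715 values of the 10 genes recomputed under the alternatives, 1687 kept their side of the threshold, 18 lost a call and 10 gained one, and of 170 changes of sign 0 concerned a called value. Pttg1 kept its rise with Rnaseh1 in the rescue set under all 13 alternatives (1.77 to 2.76), and the count of genes that fell was 7 or 8. For Rnaseh1 with Supt6 against mCherry, genes called went from 1711 to 927 without the filter (more genes tested) and to between 85 and 320 without a library, with 0 to 1 of the 10 lower, and with the compared groups fitted alone 2 of the 10 rose. The cause was not tested, beyond the loss of a library. In the first table, where 0 genes were called, leaving out replicate 1 of NSN Rnaseh1 gave 1152 genes for Rnaseh1 in NSN, with 1 of the 10 (Anapc11, -2.50, adjusted p = 0.046) and 8.44% of all tested genes lower, and 112 for SN against NSN under Rnaseh1. Leaving out replicate 2 of NSN Rnaseh1 gave 1 gene for the difference of the effects. So the counts were 0 to 1152, 0 to 112 and 0 to 1 without a library. Without both libraries that stood apart, a choice made after seeing the data, there were 5 genes for Rnaseh1 in SN, 2 for the difference of effects and 338 for SN against NSN under Rnaseh1, with 1 of the 10 lower (2.3% of all tested genes) and 4 with a signed change below that of Pttg1 (22.4%). Labels give the groups the same replicate numbers, but the numbers were not taken as pairing: the differences between replicates 1 and 2 correlated across genes at -0.51 to 0.17 between groups of the first table and at 0.00 to 0.04 in the rescue set. With a replicate block, the rise of Pttg1 was 2.17 and 8 of the 10 fell, Cdc27 gained a call for Rnaseh1 with Supt6 against Rnaseh1 (0.62, adjusted p = 0.042), and 0 genes were called in each comparison of the first table. TPM carries no depth, so counting error of low genes such as Espl1 and Fzr1 could not be given.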
